A study of Mus musculus with 11 samples.

Results

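The Elavl, Rbfox, Nova and Ptbp families of RNA-binding proteins were followed from progenitor to neuron in the embryonic mouse cortex and between Syncrip genotypes. The 10 members, Elavl2, Elavl3, Elavl4, Rbfox1, Rbfox2, Rbfox3, Nova1, Nova2, Ptbp1 and Ptbp2, were taken by name, by a rule that used no measured value though the list was drawn up with earlier results of these data known, from 48440 genes of the culture count table and 32285 genes of the single-cell matrices, and all 10 were present in both. Syncrip, an hnRNP that binds RNA, had been deleted with Emx1-Cre in C57BL/6 mice that carried Syncrip fl/fl, the floxed stretch covering exons 2 to 4, and material was taken at E14.5, when deep-layer neurons are giving way to upper-layer neurons. Bulk RNA-seq counts came from neural progenitor cells (NPCs) of the lateral ventricles grown with EGF and bFGF, 3 WT and 3 cKO cultures, with 16962903 to 22708400 counts each. Single-cell RNA-seq came from dorsal cortex of 1 WT and 1 cKO embryo of a litter, with 8214 and 9560 cells kept and medians of 11705 and 11012.5 unique molecular identifiers (UMIs, each standing for 1 captured RNA molecule) per cell. Emx1-Cre acts in the dorsal telencephalon and not in the ganglionic eminences (GE), so cells of GE origin in the cKO library are expected to keep Syncrip.

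Syncrip itself had 77.9, 79.8 and 79.9 CPM (counts scaled to a library of 1000000) in WT cultures 1 to 3, and the cKO cultures had 90.3, 88.7 and 81.5 CPM. The cKO cultures were not lower, and the log2 difference of 0.13 ± 0.08 (SE, n = 3 against 3) was not called (edgeR quasi-likelihood test, adjusted p = 0.180). In apical progenitor-like cells Syncrip stood at 314 CPM in the WT and 324 CPM in the cKO library, and in GE-derived cell-like cells at 307 and 266 CPM. These totals take in reads outside exons 2 to 4, and the single-cell tags lie at the 3′ end, so they check nothing of the deletion, and WT and cKO are used here as labelled. The sources used here do not say whether the 3 cultures of a genotype came from separate animals, and the p-values measure only the spread between these cultures. Counts of the Y-linked genes Ddx3y, Eif2s3y, Uty and Kdm5d summed to 8899, 5903 and 1 in WT cultures 1 to 3. In the cKO cultures they summed to 9232, 0 and 0. Male cells were thus not balanced between the genotypes, and Y-linked transcripts entered the test only as an alternative.

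ELAVL2, ELAVL3 and ELAVL4 (HuB, HuC and HuD) bind AU-rich and U-rich stretches of RNA, stabilize their targets and are classical markers of newborn neurons. RBFOX proteins bind the motif UGCAUG near regulated exons, and RBFOX3 is the antigen NeuN. NOVA1 and NOVA2 bind YCAY clusters and direct neuronal splicing. PTBP1 represses neuronal exons in progenitors and most tissues, and its paralogue PTBP2 takes over in differentiating neurons with weaker repression.

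Both Ptbp genes carry an exon of 34 bases whose skipping shifts the reading frame and sends the RNA to decay. This skipping is promoted by PTBP1. The exon, in capitals, is shown 5′ to 3′ with the 80 intron bases before it, because PTBP1 binds pyrimidine-rich RNA there. The stretches lie at chr10:79861934-79862047 (+) for Ptbp1 and chr3:119724612-119724725 (−) for Ptbp2 (GRCm38.p6, RefSeq).
Ptbp1: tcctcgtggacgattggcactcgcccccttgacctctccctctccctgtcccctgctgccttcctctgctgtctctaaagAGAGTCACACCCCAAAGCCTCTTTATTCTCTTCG
Ptbp2: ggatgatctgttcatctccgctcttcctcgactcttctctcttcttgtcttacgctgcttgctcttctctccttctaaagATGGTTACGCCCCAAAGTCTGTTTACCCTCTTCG
The paralogous exons were identical at 26 of 34 positions. Pyrimidines made up 73.8% of the Ptbp1 intron stretch and 76.2% of that of Ptbp2. The letters TCTT, searched in the sequence as shown with overlaps allowed, occurred 0 times before the Ptbp1 exon and 6 times before the Ptbp2 exon. CTTT occurred in neither intron stretch. Other pyrimidine motifs were not searched, so these counts do not rank the exons as PTBP1 targets. Inclusion of these exons was not measured, since the deposited values are gene totals.

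Clusters of the single cells were named from marker genes, with the members and the other listed RNA-binding proteins kept from shaping the clusters; Rbfox1 was the only member that would otherwise have been among the variable genes. The cortical classes held 954 WT and 1312 cKO apical progenitor-like cells, 1224 and 1178 intermediate progenitor-like cells, 1394 and 1544 migrating neuron-like cells, and 944 and 1144 immature excitatory neuron-like cells, beside 1189 and 1642 GE-derived cell-like cells. Another 2221 and 2385 cells fell in 5 unnamed clusters. There were 22 barcodes found in both libraries. Each level is the summed UMIs of a gene in a class per 1000000 UMIs of that class, with an exact 95% Poisson interval that covers counting error only, since each genotype was 1 embryo and no test between genotypes was possible in single cells. RNA free in the droplets adds UMIs of neuronal genes to every cell, and the level in microglia-like, endothelial cell-like and meningeal fibroblast-like cells is given as a gauge of it.

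Ptbp1 fell at every step from progenitor to neuron. In the WT embryo it stood at 95.9 CPM (95% interval 90.6 to 101) in apical progenitor-like cells, 51.5 in intermediate progenitor-like cells, 33.0 in migrating neuron-like cells and 10.5 (8.87 to 12.2) in immature excitatory neuron-like cells. The log2 change from the first to the last was -3.20 (-3.45 to -2.96) in the WT and -3.06 (-3.29 to -2.83) in the cKO embryo. Mitotic apical progenitor-like cells, the cluster led by Cenpf, Ube2c and Cdk1, held 108 CPM against 86.1 in the larger cluster led by Aldoc and Fabp7. Endothelial cell-like cells had 127 CPM and fibroblast-like cells 82.0 CPM of this gene of most tissues, so these classes are no gauge of free RNA for Ptbp1.

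Ptbp2 changed little by comparison. Its WT level was 272 CPM in apical progenitor-like cells, 325 in intermediate progenitor-like cells, 287 in migrating neuron-like cells and 214 in immature excitatory neuron-like cells, against 82.2 in endothelial cell-like, 91.6 in microglia-like and 120 in fibroblast-like cells. It was thus already above these classes in progenitors, and the log2 change from apical progenitor-like cells to immature excitatory neuron-like cells was -0.35 (-0.42 to -0.28) in the WT and -0.33 (-0.39 to -0.26) in the cKO embryo.

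The number of Ptbp2 UMIs per Ptbp1 UMI, which compares classes and not the absolute levels of the genes, rose as Ptbp1 fell. In the WT embryo it was 2.84 (2.66 to 3.03) in apical progenitor-like cells, 6.31 (5.87 to 6.80) in intermediate progenitor-like cells, 8.70 (7.96 to 9.53) in migrating neuron-like cells and 20.5 (17.4 to 24.2) in immature excitatory neuron-like cells. In the cKO embryo the values were 2.86, 5.88, 8.61 and 18.9, each within the WT interval. GE-derived cell-like cells had 9.96 (8.90 to 11.2) in the WT and 12.2 (10.96 to 13.6) in the cKO embryo. Endothelial cell-like cells had fewer Ptbp2 than Ptbp1 UMIs, 0.649 and 0.667.

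**Figure D1:**
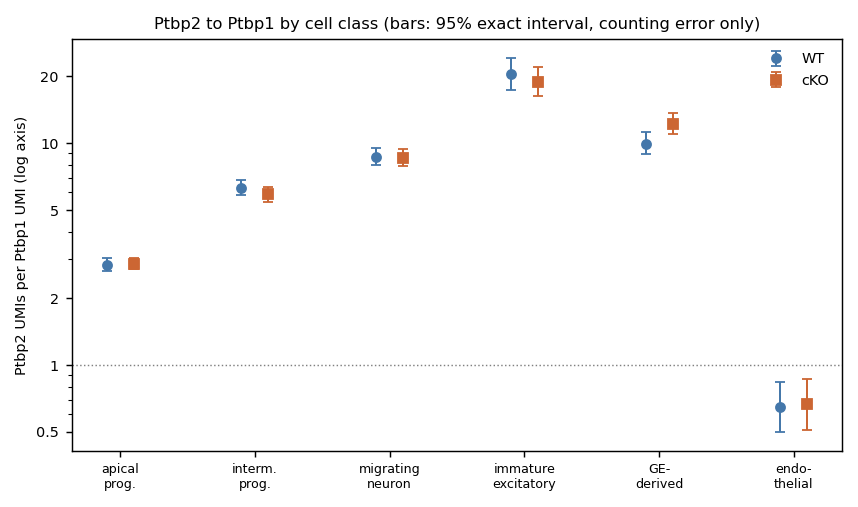
Ptbp2 UMIs per Ptbp1 UMI (vertical log axis) in 6 cell classes (horizontal axis) of the WT (circles) and cKO (squares) embryo, with exact 95% intervals for counting error. The ratio climbs from 2.84 in WT apical progenitor-like cells to 20.5 in WT immature excitatory neuron-like cells, the genotypes lie close together, and endothelial cell-like cells lie below 1.

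The loss of Ptbp1 was also seen in single cells after every cell was thinned to 5000 UMIs. A Ptbp1 UMI was found in 37.7% of 779 WT apical progenitor-like cells and in 5.45% of 826 WT immature excitatory neuron-like cells, with 175 and 118 shallower cells left out. The cKO shares were 34.7% and 4.82%. Ptbp1 and Ptbp2 were found together in 28.4% of the WT apical progenitor-like cells and in 3.15% of the WT immature excitatory neuron-like cells, while Ptbp2 alone was found in 42.7% and 60.9%. Cells with any Ptbp2 UMI made up 71.1% and 64.0%, so the rise in cells with Ptbp2 alone goes with fewer cells holding Ptbp1. Without thinning, Ptbp1 was found in 62.8% and 14.3% of these cells, at median depths of 12553 and 16218.5 UMIs, and 4 of 19 thinned WT microglia-like cells (21.1%), of a median depth of 11326 UMIs, held a Ptbp2 UMI.

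Among the Elavl genes, Elavl2 and Elavl4 were highest in intermediate progenitor-like cells, while Elavl3 rose and stayed high. Elavl2 (HuB) stood at 140, 920, 493 and 326 CPM in the WT apical progenitor-like, intermediate progenitor-like, migrating neuron-like and immature excitatory neuron-like cells. Elavl4 (HuD) followed at 157, 735, 403 and 142 CPM, so that it was as low in the immature excitatory neuron-like cells as in the apical progenitor-like cells (log2 change -0.15, -0.24 to -0.06). Elavl3 (HuC) stood at 139, 449, 618 and 633 CPM, and its last step was 0.03 (-0.01 to 0.08) on the log2 scale. The WT endothelial cell-like, microglia-like and fibroblast-like cells held 41.1 to 55.0 CPM of Elavl2, 68.3 to 99.4 CPM of Elavl3 and 29.6 to 61.5 CPM of Elavl4, and the apical progenitor-like cells were above each of these ranges. Red blood cell-like cells, with few UMIs, held 80.2, 66.8 and 53.5 CPM.

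The Rbfox genes parted ways after the intermediate progenitor-like stage. Summed by class, Rbfox1 climbed at every step, from 174 to 595, 2387 and 6148 CPM in the WT embryo. This was a log2 change of 5.14 (5.08 to 5.20) over the whole course, the largest among the members. Its WT intermediate progenitor-like clusters ran from 69.9 CPM, below the apical progenitor-like level, to 2979 CPM. The highest, of 55 WT cells with a median of 25975 UMIs, gave 4513 of the 9798 Rbfox1 UMIs of this class. Rbfox2 rose from 159 to 351 and 469 CPM and then stood at 478 CPM, a last step of 0.03 (-0.02 to 0.07). Rbfox3 rose from 26.8 to 360 CPM in intermediate progenitor-like cells and then fell to 298 and 111 CPM. GE-derived cell-like cells held 1185 CPM of Rbfox1, 481 of Rbfox2 and 112 of Rbfox3.

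In WT apical progenitor-like cells Rbfox1 lay below, and Rbfox3 within, the range of the classes used as a gauge of free RNA. WT red blood cell-like cells held 80.2 CPM of Rbfox1 on 18 UMIs, so the gauge classes do not fix a free-RNA level for this gene. WT endothelial cell-like, microglia-like and fibroblast-like cells held 502, 285 and 420 CPM of Rbfox1 and 41.9, 23.6 and 34.2 CPM of Rbfox3, against 174 and 26.8 CPM in the WT apical progenitor-like cells. After thinning, a Rbfox3 UMI was found in 7.19% of WT apical progenitor-like cells, 15.8% of WT microglia-like cells and 17.4% of WT endothelial cell-like cells, and 14.3%, 16.1% and 66.7% without thinning at median depths of 12553, 11326 and 39431 UMIs. The cKO apical progenitor-like cells, with 276 CPM of Rbfox1 and 40.0 CPM of Rbfox3, compare with 111, 168 and 513 CPM of Rbfox1 and 39.5, 15.7 and 32.9 CPM of Rbfox3 in the cKO endothelial cell-like, microglia-like and fibroblast-like cells. No expression in these progenitors is read from such levels. When the barcodes called doublets by Scrublet were removed, Rbfox1 in the apical progenitor-like cells dropped from 174 to 44.4 CPM in the WT and from 276 to 60.4 CPM in the cKO library.

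Nova1 and Nova2, the neuronal splicing factors, ran in opposite directions. Nova1 stood at 36.3 CPM in WT apical progenitor-like cells, 14.3 in intermediate progenitor-like cells, 6.21 in migrating neuron-like cells and 9.51 in immature excitatory neuron-like cells, with 33.5 in GE-derived cell-like cells and 1.37 to 10.5 in the 3 gauge classes. Nova2 stood at 36.6, 86.6, 108 and 151 CPM along the same course, with 129 in GE-derived cell-like cells. The log2 change from apical progenitor-like cells to immature excitatory neuron-like cells was -1.93 (-2.22 to -1.66) for Nova1 and 2.05 (1.90 to 2.19) for Nova2. Endothelial cell-like cells of the WT embryo also held 83.1 CPM of Nova2, above the apical progenitor-like cells.

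**Figure D2:**
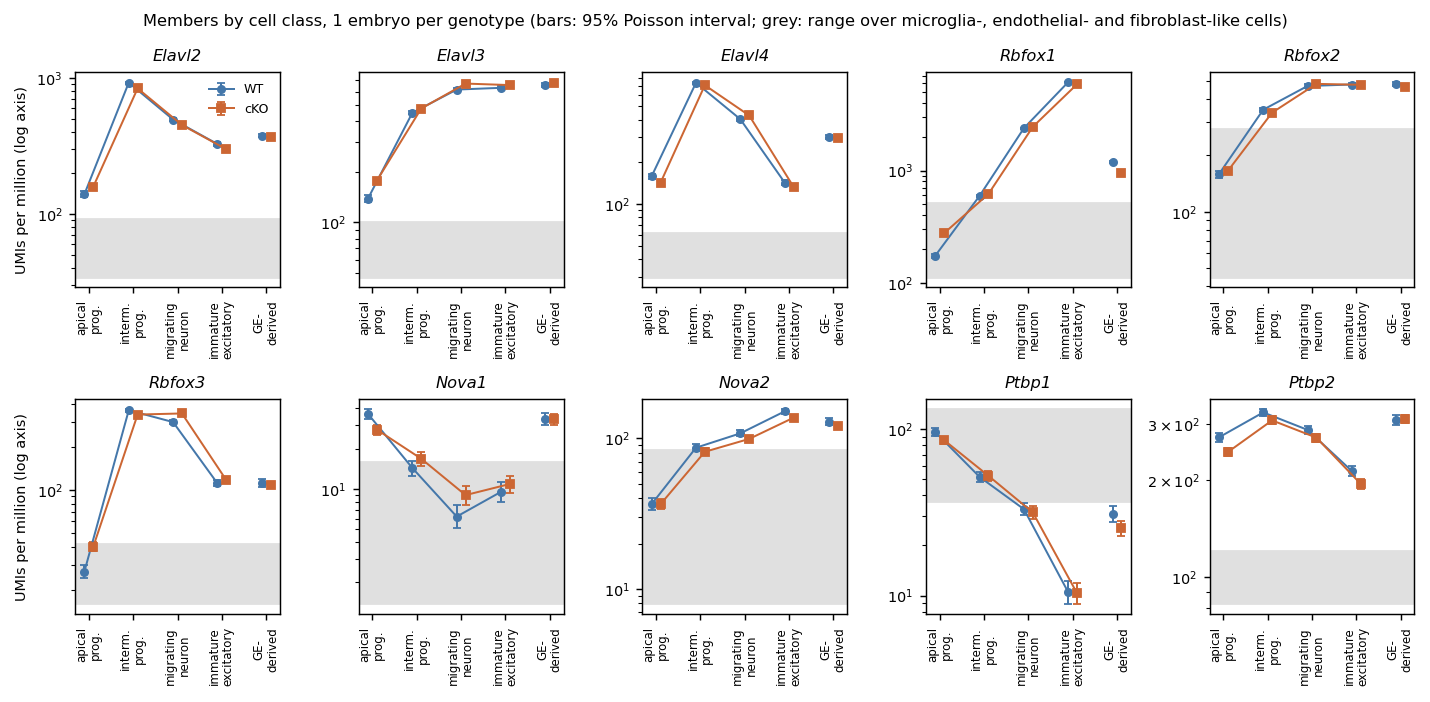
Level of each member (CPM of the class, vertical log axis) in 5 cell classes (horizontal axis) of the WT (circles) and cKO (squares) embryo, with 95% Poisson intervals for counting error and a grey band for the range over microglia-, endothelial- and fibroblast-like cells of both libraries. Rbfox1 climbs to 6148 in WT immature excitatory neuron-like cells, Ptbp1 falls to 10.5, Elavl2, Elavl4 and, in the WT, Rbfox3 peak in intermediate progenitor-like cells, and the apical progenitor-like points of Rbfox1 and Rbfox3 lie within the grey band.

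Of the 10 members, 6 were at least 2-fold higher and 2 at least 2-fold lower in immature excitatory neuron-like than in apical progenitor-like cells of the WT embryo, with a median log2 change of 1.41, against 1484 higher and 2163 lower of 10239 genes and a median of -0.25 over all of them. In the cKO embryo 5 were higher and 2 lower, Elavl2 then standing at 0.91 on the log2 scale. Of 10 measured genes of the list of RNA-binding proteins of progenitors and most tissues, to which the transcription factor Rest had been added, 6 fell and 0 rose past this fold (WT median -1.32), among them Qk, from 696 to 83.9 CPM, and Rest, a DNA-binding repressor of neuronal genes, from 58.0 to 13.8 CPM. Of 11 other neuron-enriched RNA-binding proteins, 9 rose and 2 fell (median 2.63). Srrm4, an activator of neuronal microexons, rose from 84.4 to 523 CPM, and Raver2, a partner of PTBP1, fell from 21.8 to 4.25 CPM. All 6 listed transcripts that PTBP1 holds low rose past 2-fold (median 1.70), such as Dlg4, the postsynaptic scaffold PSD-95, from 23.1 to 81.3 CPM. Of 6 listed ELAVL targets 3 rose and 1 fell (median 1.796), Bdnf among the risers on only 2 UMIs in the WT apical progenitor-like cells. In the cKO embryo 2 of these 6 targets rose and 1 fell (median 0.72). The target Mapt was also a marker used to name the immature excitatory neuron-like cells, so its change is not independent of the naming.

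Likeness of pattern was measured as Pearson's r of log2(CPM + 10) over the 24 clusters with at least 50 WT cells, which share a library and its free RNA, among 6937 genes. The gene nearest to Elavl2 was Elavl4, with r = 0.90 in the WT and 0.91 in the cKO library, while Elavl4 had Ago1 (0.91 and 0.92) just ahead of Elavl2. Nearest to Elavl3 was Soga3 (0.97 and 0.96), to Rbfox1 Slc8a1 (0.96 and 0.98), to Rbfox2 Znrf1 (0.97 and 0.96) and to Rbfox3 Clvs1 (0.95 and 0.90). For Nova2 it was Atcay (0.97 and 0.88), for Ptbp1 Hdac1 (0.97 and 0.94) and for Ptbp2 Smarcc1 (0.98 and 0.94). Nova1 had no gene as close, its nearest being Elp4 (0.81 and 0.82). The next genes were Mgat5b for Elavl2, Gpc2 for Elavl3, Klhl29 for Rbfox1, Dhx57 for Rbfox2, Lzts1 for Rbfox3, Med12l for Nova1, Atl1 for Nova2, Scaf11 for Ptbp1 and Zfp292 for Ptbp2, with WT values from 0.80 to 0.97.

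Elavl3 rose and Ptbp1 fell between apical and intermediate progenitor-like cells, the class marked by Eomes and the proneural factor Neurog2, whose family binds E-boxes. Promoters of 300 bases (250 before to 50 after the start, RefSeq, GRCm38.p6) were given for 9 members, all but Rbfox2, and were searched for CAGCTG, which is its own reverse complement, and for CAGATG on both strands (CATCTG). Of these 18 promoters 10 held at least 1 match, against 30.6% of 32851 promoters of all genes. The 10 belonged to 6 of the 9 members. Both promoters below show matches in capitals, Elavl3 at chr9:22051974-22052273 (−) and Ptbp1 at chr10:79854182-79854481 (+).
Elavl3: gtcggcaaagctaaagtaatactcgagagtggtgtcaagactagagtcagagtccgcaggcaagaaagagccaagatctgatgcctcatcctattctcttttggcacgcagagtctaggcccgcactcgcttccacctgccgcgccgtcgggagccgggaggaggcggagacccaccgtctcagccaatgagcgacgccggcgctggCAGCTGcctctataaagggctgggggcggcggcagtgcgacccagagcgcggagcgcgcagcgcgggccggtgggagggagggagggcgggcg
Ptbp1: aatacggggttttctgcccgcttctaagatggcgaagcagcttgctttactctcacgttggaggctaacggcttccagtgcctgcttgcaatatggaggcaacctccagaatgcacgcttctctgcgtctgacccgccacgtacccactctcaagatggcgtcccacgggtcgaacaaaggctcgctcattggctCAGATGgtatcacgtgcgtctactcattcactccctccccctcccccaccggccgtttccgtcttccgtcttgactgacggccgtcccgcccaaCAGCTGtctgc
A match is a description of the letters and not of binding, and promoters of a gene overlap one another. Any part of Neurog2 in the changes of Elavl3 and Ptbp1 was not tested.

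In the NPC cultures, Nova1 and Ptbp2 were higher and Elavl3, Rbfox1 and Rbfox3 were lower in the cKO. Thus 5 of 10 members passed the threshold (edgeR quasi-likelihood test, adjusted p below 0.05 over 14432 genes), where 39.5% of all genes did. The 2 higher members compare with 19.7% of genes called higher, and the 3 lower members with 19.8% called lower. The 3 cKO cultures did not overlap the 3 WT cultures for 7 of 10 members, against 50.4% of all genes, so these shares are near those of all genes. The median log2 difference of the members was -0.04, against 0.00 over all genes. In bulk cultures, fewer cells of a type and less RNA per cell cannot be told apart.

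Ptbp2 (chr3:119718742-119784466) had 293, 231 and 266 CPM in the WT and 399, 387 and 374 CPM in the cKO cultures. All cKO cultures were above all WT cultures, with a log2 difference of 0.55 ± 0.09 (SE, edgeR adjusted p = 3.12e-04). Ptbp1 (chr10:79854427-79864771) had 34.27, 33.98 and 34.49 CPM in the WT and 36.8, 40.8 and 44.7 CPM in the cKO cultures. Its groups did not overlap either, but the log2 difference of 0.25 ± 0.10 did not pass (edgeR adjusted p = 0.0518). It passed with adjusted p = 0.0458 without cKO replicate 1, the lowest of the cKO cultures, and over all 12 alternatives the adjusted p of edgeR or DESeq2 ran from 0.0350 to 0.242.

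Nova1 (chr12:46694517-46818775) had 419, 323 and 353 CPM in the WT and 768, 753 and 751 CPM in the cKO cultures. The cKO cultures were tightly grouped above the WT cultures, and the log2 difference was 1.05 ± 0.10 (SE, edgeR adjusted p = 2.01e-06), the most firmly called among the members. Nova2 (chr7:18925888-18965319) had 54.3, 56.5 and 65.1 CPM in the WT and 55.7, 57.0 and 60.6 CPM in the cKO cultures, which overlapped (log2 -0.02, edgeR adjusted p = 0.869).

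Among the Elavl genes only Elavl3 passed. Elavl3 (chr9:22015005-22052023) had 258, 299 and 330 CPM in the WT and 178, 210 and 195 CPM in the cKO cultures. The groups were apart, with the cKO lower by a log2 difference of -0.61 ± 0.10 (SE, edgeR adjusted p = 2.61e-04). Elavl2 (chr4:91250763-91400785) had 48.8, 41.6 and 49.1 CPM in the WT and 38.7, 39.3 and 40.6 CPM in the cKO cultures. All cKO values lay below all WT values, but the log2 difference of -0.23 ± 0.10 did not pass (edgeR adjusted p = 0.0684), and did without WT replicate 2, the lowest WT culture (-0.32, adjusted p = 0.0270, the range over 12 alternatives being 0.0270 to 0.155). Elavl4 (chr4:110203722-110351909), at 49.5 to 61.6 CPM in the WT and 50.1 to 56.5 CPM in the cKO cultures, overlapped (log2 -0.07, edgeR adjusted p = 0.624).

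Rbfox3 (chr11:118489762-118911597) gave the largest difference among the members. It had 31.0, 48.9 and 57.3 CPM in the WT and 16.4, 19.8 and 16.1 CPM in the cKO cultures. This was a log2 difference of -1.40 ± 0.20 (SE, edgeR adjusted p = 3.13e-04), with the WT cultures more spread than the cKO cultures. Rbfox1 (chr16:6809222-7412479) had 7.61, 7.74 and 9.01 CPM in the WT and 4.56, 4.78 and 3.66 CPM in the cKO cultures, which rested on 76 to 202 counts per culture (log2 -0.91 ± 0.17, edgeR adjusted p = 0.00105). Rbfox2 (chr15:77078990-77307053), at 146 to 180 CPM in the WT and 157 to 160 CPM in the cKO cultures, overlapped (log2 -0.02, edgeR adjusted p = 0.901).

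**Figure D3:**
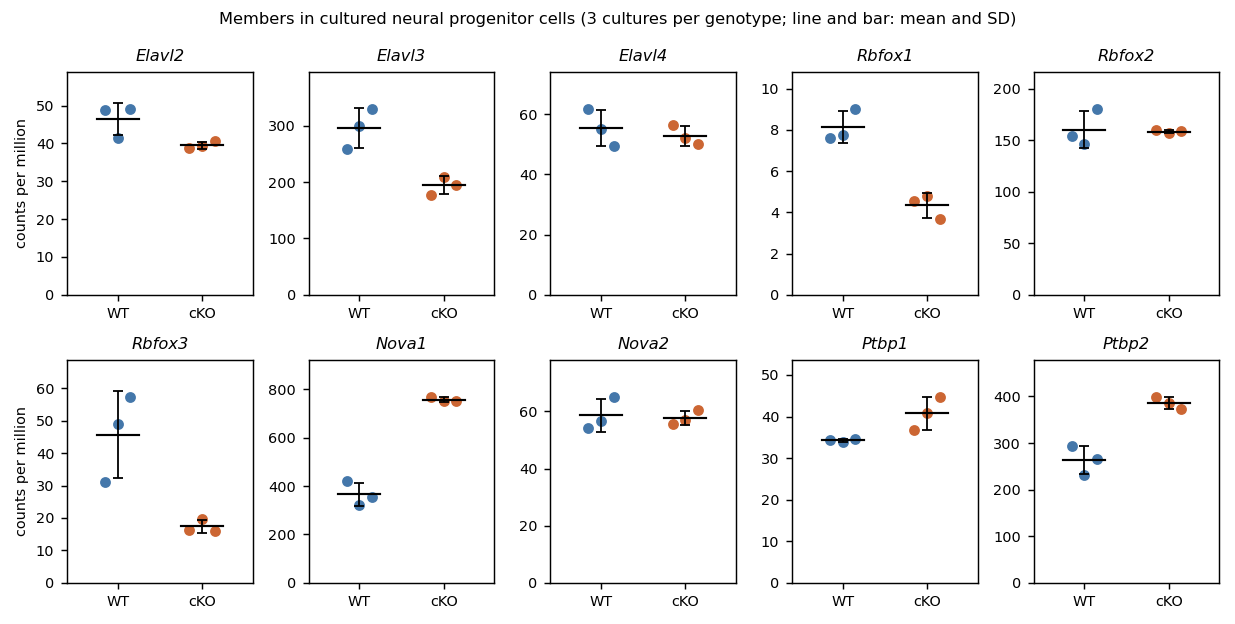
CPM (vertical axis, from 0) of each member in the 3 WT and 3 cKO NPC cultures (points), with the mean (line) and SD (bar). The cKO points lie above the WT points for Nova1, Ptbp1 and Ptbp2, below them for Elavl2, Elavl3, Rbfox1 and Rbfox3, and among them for Elavl4, Rbfox2 and Nova2.

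How the counts were made bears on some members. The coordinates above are those of the count table (mm10), and all 10755 genes whose whole span lies inside another gene held 0 counts in every culture, against 40.4% of the other genes, so a 0 there says nothing of expression. Of the exonic bases of Ptbp1 66.8% lie in the span of another gene, among them Plppr3. Of those of Nova2 50.6% lie in the span of another entry. The 2 entries overlapping Nova2 are Gm26821 and a second entry of Nova2 itself (chr7:18926080-18958618), which held 0 counts. Both Ptbp1 and Nova2 are uncertain because of these overlaps. The exonic share was 4.34% for Rbfox2 and 0 for the other 7 members. The gene length listed with the counts was the whole span for 100% of genes, so intron reads may have been counted. Of the whole span 89.5% of Nova2, 46.7% of Ptbp1, 8.31% of Ptbp2, 5.27% of Rbfox2, 0.827% of Rbfox3 and 0.427% of Elavl2 lay in other entries. The counted span of Rbfox1 starts at 6809222 and that in GENCODE M21 at 5885355, so the stretch between lay outside it.

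The other listed genes moved in both directions, where 19.7% of all genes tested were called higher and 19.8% lower. Of the 11 listed RNA-binding proteins of progenitors and most tissues, Rest included, Mbnl1 (log2 0.57) and Ptbp3, the third Ptbp paralogue (0.27), rose and Msi1 (-0.56) fell, with a median of 0.17. Of 11 other neuron-enriched RNA-binding proteins, Khdrbs2 (1.45) and Rbm24 (1.13) rose and Celf5 (-1.18), Celf6 (-1.21) and Raver2 (-0.69) fell, with a median of -0.36. Of the 6 transcripts that PTBP1 holds low, 3 fell, among them Sv2a (-1.15) and Kif5a (-0.99), and 0 rose (median -0.18). Of the 6 ELAVL targets 3 fell, Cdkn1a (-1.63), Mapt (-1.33) and Gap43 (-0.36), and 1 rose (median -0.17).

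Markers of neurons and other cells moved with genotype in the cultures as well, beside the same 19.7% of all genes called higher and 19.8% called lower. Of 8 pan-neuronal markers tested 6 fell and 0 rose (median -0.43), Stmn2 from 13.2 to 16.4 CPM in the WT to 0.116 to 0.193 CPM in the cKO cultures. The sum over the list overlapped, at 2109 to 2474 CPM in the WT and 2247 to 2389 CPM in the cKO, with Tubb3 and Nefl at 0. Most of this sum was Map2, at 1346 to 1590 CPM in the WT and 1594 to 1731 CPM in the cKO (log2 0.19, not called). The sum therefore does not gauge neuronal RNA as a whole. The summed markers of immature excitatory neurons were 643 to 791 CPM in the WT and 362 to 402 CPM in the cKO, with 5 of 10 called lower and 2 called higher. Those of GE-derived cells were 257 to 307 and 468 to 529 CPM, with 3 of 10 called lower and 1 higher. The higher one was Erbb4, which gave 192 to 237 and 414 to 468 CPM of these sums. The cultures also held astrocyte transcripts (3391 to 3634 and 2417 to 2712 CPM in sum, 5 of 6 tested lower, median -0.40) and oligodendrocyte lineage transcripts (4009 to 4318 and 2983 to 3545 CPM, 2 of 7 higher and 2 lower, median 0.12), with the astrocyte marker Gfap at 0. Apical progenitor markers summed to 6017 to 7242 and 6197 to 7069 CPM, with Sox2 at 0, and microglia and endothelial cell markers to at most 3.30 CPM. The part of these cells in the members' differences was not tested.

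In the embryo, few members passed a 5/4-fold ratio between genotypes in the other main classes. A ratio past 5/4-fold was found for 0 of 10 members in intermediate progenitor-like cells, where 8.98% of genes with at least 200 UMIs were past it, for 1 in migrating neuron-like cells (background 7.0%), for 0 in immature excitatory neuron-like cells (7.59%) and for 1 in GE-derived cell-like cells (6.47%). In migrating neuron-like cells this was Nova1, on 102 WT and 153 cKO UMIs (log2 0.53, 0.16 to 0.91), at levels no higher than the 10.5 CPM of WT microglia-like cells. In GE-derived cell-like cells, which Emx1-Cre does not reach, it was Rbfox1, with 1185 CPM in the WT and 941 CPM in the cKO library (log2 -0.33, -0.37 to -0.30). Its clusters went both ways, from 1342 to 821 CPM in the largest, led by Sst and Nxph1, but from 695 to 864 CPM in the cluster led by Adarb2 and Six3. In the unnamed clusters as 1 set Rbfox3 stood at 130 CPM in the WT and 166 CPM in the cKO library (log2 0.35, 0.29 to 0.42). In the small Cajal-Retzius cell-like class Rbfox1 stood at 155 and 307 CPM (log2 0.98, 0.70 to 1.28), below the level of WT fibroblast-like cells.

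In apical progenitor-like cells 3 of 10 members were past 5/4-fold higher and 1 was past it lower in the cKO library, where 5.77% and 3.63% of 10392 genes were. Elavl3 had 139 CPM in the WT and 177 CPM in the cKO (log2 0.36, 0.27 to 0.44), Rbfox1 174 and 276 CPM (0.67, 0.60 to 0.74) and Rbfox3 26.8 and 40.0 CPM (0.58, 0.39 to 0.77). Nova1 had 36.3 and 27.7 CPM (-0.39, -0.57 to -0.21). The others lay closer to 0, with Elavl2 at 0.18, Rbfox2 at 0.06, Nova2 at 0.00, Ptbp2 at -0.15, and Elavl4 and Ptbp1 at -0.16. With 1 embryo per genotype, genotype and embryo cannot be told apart.

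Neuronal transcripts were also higher in the cKO apical progenitor-like cells. All 10 pan-neuronal markers were higher and 6 past 5/4-fold, their sum being 702 CPM in the WT and 845 CPM in the cKO, while apical progenitor markers summed to 7891 and 7871 CPM. Scrublet called 5.77% of the WT and 8.61% of the cKO apical progenitor-like cells doublets. The count of higher members was 3 without the cluster of lowest UMI count, an alternative chosen after seeing the data, 2 with doublets removed, and 0 at clustering resolution 0.4, where Elavl3 stood at 0.22, Rbfox1 at 0.23 and Rbfox3 at 0.05 and the sums of the pan-neuronal markers at 1002 and 1021 CPM. The part of these cells and of free RNA in the ratios was not tested. Nova1 stayed lower, at -0.34, at this resolution.

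**Figure D4:**
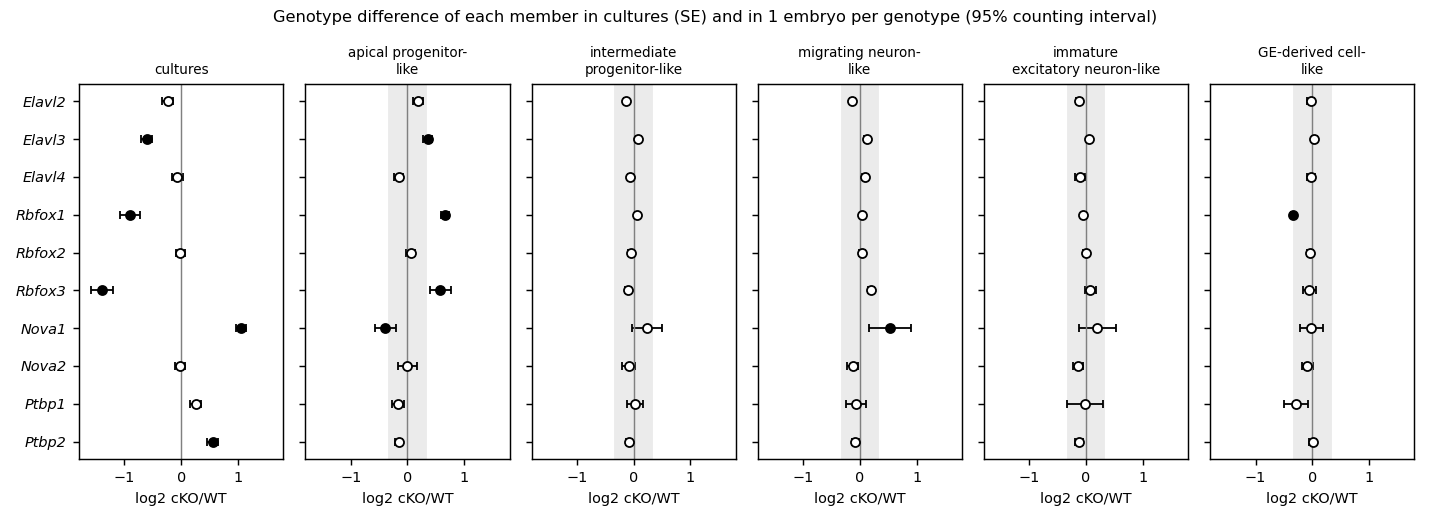
Log2 ratio of cKO over WT (horizontal axis) for each member (rows) in the NPC cultures, with SE and filled points for adjusted p below 0.05, and in 5 cell classes of 1 embryo per genotype, with 95% counting intervals, a grey band for ratios within 5/4-fold and filled points past it. Elavl3, Rbfox1 and Rbfox3 lie left of 0 in the cultures and right of it in the apical progenitor-like cells, Nova1 the other way round, and most points in the other classes lie in the band.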

How the data were processed

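The authors deposited raw read counts per gene for the 6 NPC cultures and UMI counts per gene and barcode for the 2 cortex libraries; the matrix headers name Cell Ranger 7.0.0. The submitters' processing notes list cutadapt, Bowtie, HISAT2, Cell Ranger, DESeq2 and Seurat and the build mm10. The program that counted the culture reads, its strand setting, and whether intron reads were counted in single cells are not stated in any source read here. LACE-seq samples were not used.

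The members were picked by name and not by a measured value, but they and the gene lists were chosen with earlier results of these data known. Culture counts were tested with edgeR 4.0.16 (R 4.3.3; TMM, filterByExpr, robust quasi-likelihood fit, 3 cultures per genotype) with Benjamini-Hochberg adjustment over all genes tested and a threshold of 0.05. DESeq2 1.42.0 was an alternative. CPM of cultures were scaled by TMM.

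Cells were kept from 200 detected genes upwards and up to 10% mitochondrial UMIs, and clustered with Seurat 5.3.0 (1993 variable genes, 30 components, 20 neighbours, resolution 0.8). A cluster was named after the class with the highest mean standardized marker level if this was at least 0.5 and at least 3 markers were 1.5-fold raised. Doublets were called with Scrublet (scanpy 1.11.5) and removed only as an alternative. Class levels are summed UMIs with exact 95% intervals. Both pipelines were tested on simulated data. The genes named are all members, the fixed lists, Syncrip, the cell type markers and, for each member, the 2 genes of most similar pattern, with at least 50 CPM in a cluster and Gm and Rik genes left out; values of some listed genes are not reported here. Other alternatives were DESeq2 scaling, count filters, a replicate block, a Y-linked covariate, leaving out each culture, other resolutions, a stricter cell filter and other thinning depths. The replicate numbers were not used to pair cultures.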

Additional observations from a re-analysis of the deposited data

Results flagged for a closer look

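For all 7 members whose WT and cKO cultures did not overlap, the log2 ratio in apical progenitor-like cells had the opposite sign with a counting interval apart from 0. In the cultures and in these cells the values were -0.23 and 0.18 for Elavl2, -0.61 and 0.36 for Elavl3, -0.91 and 0.67 for Rbfox1, -1.40 and 0.58 for Rbfox3, 1.05 and -0.39 for Nova1, 0.25 and -0.16 for Ptbp1, and 0.55 and -0.15 for Ptbp2. Rbfox1 was also lower in the cKO library in GE-derived cell-like cells (-0.33) and higher in apical progenitor-like cells (0.67). At clustering resolution 0.4 the ratios in apical progenitor-like cells were 0.011 for Elavl2, 0.22 for Elavl3, 0.23 for Rbfox1, 0.05 for Rbfox3 and -0.34 for Nova1. Elavl2 stood at 179 CPM in both libraries in the apical progenitor-like cluster with most cells, at 102 (WT) and 143 CPM (cKO) in the mitotic one, and at 104 and 78.3 CPM in the one of lowest UMI count. Rbfox1 and Rbfox3 did not stand clear of the gauge classes in the apical progenitor-like cells, and all 10 pan-neuronal markers were higher there in the cKO library. These differences were not tested, since each genotype was 1 embryo in the single-cell data, and cultured and freshly dissociated cells were prepared and counted differently. The share of all genes with such opposite signs was not counted, so the count of 7 is not read as a trait of the members.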

How the results depend on the processing

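The 5 members called in the cultures were called, in the same direction, under all 12 alternatives. Elavl2 passed with Y-linked transcripts as a covariate (adjusted p = 0.0418), with the replicate block (0.0438) and without WT replicate 2 (0.0270). Ptbp1 passed with a filter of at least 50 counts in 3 cultures (0.0451), with the block (0.0350) and without cKO replicate 1 (0.0458). Over the alternatives 2 to 3 members were higher and 3 to 4 lower. With each culture left out in turn, 2068 to 3070 of all genes were higher and 2040 to 3275 lower. Same-numbered cultures had correlations of their deviations of 0.33, -0.02 and 0.07, so the labels' numbers were not taken to pair them; with the replicate block 3 members were higher and 4 lower, and 3189 and 3216 of all genes.

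In single cells, 0 members were past 5/4-fold higher in cKO apical progenitor-like cells at resolution 0.4, and 0 in migrating neuron-like cells under the stricter cell filter. Rbfox1 in intermediate progenitor-like cells turned from 0.06 to -0.16 at resolution 0.4 and -0.031 with doublets removed, and Elavl4 in migrating neuron-like cells from 0.09 to -0.038 at resolution 1.2; the cause was not tested. Of the values per member and class, 540 stayed within their counting interval and 337 moved out of it without turning. The other 40 counts of members past the fold, over classes and alternatives, were within 1.5 times the reported count. Intervals cover counting error only, and depth limits Nova1 most, with 102 UMIs in WT migrating neuron-like cells.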

Other observations

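Genes outside the lists were also read for their bearing on Ptbp1, after their values were seen: Mir124a-1hg and Mir124-2hg, the host genes of miR-124, a neuronal microRNA known to target Ptbp1. In the WT embryo Mir124a-1hg stood at 5.65 CPM in apical progenitor-like and 39.5 CPM in immature excitatory neuron-like cells, and Mir124-2hg at 28.2 and 101 CPM. In the cultures Mir124a-1hg had 16.0, 18.8 and 22.7 CPM in the WT and 2.70, 3.96 and 3.57 CPM in the cKO (log2 -2.50, edgeR adjusted p = 2.56e-07), and Mir124-2hg 32.0, 30.4 and 30.8 CPM in the WT and 19.8, 16.8 and 20.9 CPM in the cKO (log2 -0.69, edgeR adjusted p = 1.65e-04). In the apical progenitor-like cells both were higher in the cKO library, by 0.61 and 0.75 on the log2 scale. They were higher too in intermediate progenitor-like (0.63 and 0.47), migrating neuron-like (0.32 and 0.42) and immature excitatory neuron-like cells (0.54 and 0.29). In GE-derived cell-like cells the ratios were 0.15 and 0.03. The WT apical progenitor-like level of Mir124a-1hg lay below the 7.85 to 10.7 CPM of the WT microglia-like, fibroblast-like and endothelial cell-like cells. That of Mir124-2hg lay within their 13.1 to 36.9 CPM. The cKO apical progenitor-like levels were 8.62 and 47.3 CPM, against 4.59 to 7.04 and 7.87 to 38.7 CPM in these classes, on few UMIs. In apical progenitor-like cells 5.77% of 10392 genes were past 5/4-fold higher. No expression in these progenitors is read from such levels.

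Rbfox1 also varied between the libraries in classes that should lack it. Endothelial cell-like cells, 24 in the WT and 33 in the cKO library, held 502 and 111 CPM, and microglia-like cells 285 and 168 CPM.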
